A study of Mus musculus with 21 samples.

Results

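Fgf5, the fibroblast growth factor gene whose transcript marks the formative state of mouse pluripotent cells, was described here through the 13 H3K4me1 regions, of 186824 with a level in every group, whose nearest gene it is in the deposited table. Mouse embryonic stem cells were profiled by CUT&RUN, in which an antibody against a chromatin mark brings a protein A-MNase fusion to its target so that the DNA around it is cut free and sequenced. The groups were naive cells and formative cells, the latter collected 63 h after withdrawal of LIF and 2i, each in 4 genotypes: WT and MLL3CD_MLL4CD (here dCD), both in the R1 line, and MLL3KO_MLL4fl (here the floxed line) and MLL3KO_MLL4KO (here DKO), for which no line is named. The floxed line and DKO both lack MLL3, so DKO was set against the floxed line to read the loss of MLL4, and dCD against wild type. Line of origin and genotype cannot be told apart in comparisons of the floxed line with wild type, or of DKO with wild type or dCD. Each group had 2 H3K4me1 libraries labelled as replicates, with nothing said of separate cultures, so the authors' FDR for wild type measures only the spread between those libraries. The table gives 1 pooled level per group, and differences between groups carry no other test. The antibody's catalogue number is not the same in every label field, and the number in the protocol belongs to a product sold against H3K27ac. The mark is therefore called what the sample labels call it.

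H3K4me1 is the monomethyl mark carried by enhancers in both their primed and active forms, H3K27ac is the acetyl mark of the active form, and MLL3 and MLL4 are large methyltransferases that place H3K4me1 at enhancers. The FGF5 ligand is a secreted growth factor. Its gene is silent or nearly so in naive embryonic stem cells and is switched on as they leave that state, when a set of enhancers within and downstream of the gene becomes active, which has made the locus a standard model of enhancer activation.

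The gene lies on the plus strand at chr5:98254184-98277030 (mm10, GENCODE M21, ENSMUSG00000029337.2) and has 3 exons. From upstream to downstream, 2 regions lay before the gene, at −11.4 and −7.7 kb from the start site (distances as deposited), and 1 region of 8505 bp (chr5:98248578-98257082) covered the start site, exon 1 and the 5′ UTR. In intron 1 there were 2 regions, at +4.3 and +6.4 kb, and in intron 2 there were 4, at +11.5, +14.0, +18.0 and +19.9 kb. A region at +21.7 kb overlapped the 3′ UTR in exon 3, and 3 regions lay downstream in intergenic DNA, at +29.1, +34.8 and +36.6 kb. Region widths ran from 849 to 8505 bp with a median of 1826 bp, against 1947 bp over all regions.

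Sequences of the mm10 plus strand are shown for the regions with the largest wild-type gain (+6.4 kb, intron 1, central 300 bases, chr5:98260404-98260703), the smallest FDR (+29.1 kb, chr5:98283122-98283421) and a formative DKO level at least 2-fold below the floxed line (+34.8 kb, chr5:98288808-98289107, and +36.6 kb, chr5:98290614-98290913), beside the 250 bases before the start site from RefSeq (GRCm38.p6, chr5:98253934-98254183). CpG dinucleotides are in capitals.
Fgf5 promoter: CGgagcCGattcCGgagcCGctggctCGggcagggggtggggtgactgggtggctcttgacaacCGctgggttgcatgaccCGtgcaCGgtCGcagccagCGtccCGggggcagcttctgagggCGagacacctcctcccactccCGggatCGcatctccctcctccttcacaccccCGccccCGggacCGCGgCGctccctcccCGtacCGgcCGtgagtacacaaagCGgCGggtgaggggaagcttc
Fgf5 +6.4 kb: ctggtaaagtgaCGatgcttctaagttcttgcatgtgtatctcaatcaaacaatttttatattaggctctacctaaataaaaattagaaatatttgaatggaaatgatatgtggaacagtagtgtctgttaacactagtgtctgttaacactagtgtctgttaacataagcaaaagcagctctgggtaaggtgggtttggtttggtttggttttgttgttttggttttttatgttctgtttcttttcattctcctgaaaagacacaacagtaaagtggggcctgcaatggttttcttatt
Fgf5 +29.1 kb: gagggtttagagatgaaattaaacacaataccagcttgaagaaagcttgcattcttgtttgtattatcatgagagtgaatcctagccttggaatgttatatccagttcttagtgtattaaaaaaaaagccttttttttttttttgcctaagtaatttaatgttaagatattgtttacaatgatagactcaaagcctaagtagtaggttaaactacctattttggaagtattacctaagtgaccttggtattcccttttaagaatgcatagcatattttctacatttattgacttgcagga
Fgf5 +34.8 kb: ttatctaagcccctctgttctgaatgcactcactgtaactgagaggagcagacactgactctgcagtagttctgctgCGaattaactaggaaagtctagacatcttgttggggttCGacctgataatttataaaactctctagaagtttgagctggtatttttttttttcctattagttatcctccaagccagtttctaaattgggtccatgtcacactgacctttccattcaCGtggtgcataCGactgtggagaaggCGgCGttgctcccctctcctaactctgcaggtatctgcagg
Fgf5 +36.6 kb: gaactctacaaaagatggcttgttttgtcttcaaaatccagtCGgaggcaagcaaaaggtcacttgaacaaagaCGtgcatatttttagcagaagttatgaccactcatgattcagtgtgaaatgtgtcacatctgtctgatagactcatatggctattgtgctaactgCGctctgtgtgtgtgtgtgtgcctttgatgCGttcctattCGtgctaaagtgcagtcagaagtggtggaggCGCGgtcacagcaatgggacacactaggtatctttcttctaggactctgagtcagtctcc
The promoter stretch held 24 CpGs at a GC content of 70.8%, whereas these distal windows held 1, 0, 6 and 7 CpGs. Over their whole width the 13 regions had a CpG content (dinucleotides as a percent of bases) of 0.49% to 2.62% with a median of 1.32%, against 1.17% over all regions, and a median GC content of 42.3% against 46.2%. In the central 300 bases, both strands were searched for TAATCC (the core bound by OTX2, a homeodomain factor of the formative state), ATGCAAAT (the POU octamer), AACCNGGTT (GRHL factors) and GGAATG (TEAD factors). The first 3 were in none of the 13 windows, against 11%, 2.18% and 0.274% of the windows of all regions. GGAATG was in 2 of 13 (−11.4 kb and +29.1 kb, in the latter from base 90 of the window shown), or 15.4%, against 17.6% of all. No match says only that these letters are not in the window.

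Wild-type cells gained H3K4me1 along nearly the whole locus on entering the formative state. All 13 regions were higher in formative cells, 10 of them at least 2-fold (a log2 level difference of 1), where 11.1% of all regions were. In the authors' deposited table, 10 regions gained at an FDR under 0.05, where 9.82% of all regions did, and none lost. The gain was not even: it was largest in intron 1 and downstream, small over the start site and close to 0 at the 3′ end of the gene. Normalized reads, recovered from the levels, summed to 419 over the 13 regions in naive and 1170 in formative wild-type cells, or 11.5 and 31.9 per kb.

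The largest gain lay at +6.4 kb in intron 1 (chr5:98259770-98261339). Its level, which is on a log2 scale and can be compared between groups but not between regions of different width, was 3.56 in naive and 6.52 in formative wild-type cells, a difference of 2.97, with an FDR of 3.16e-06 in the authors' deposited table. The same region went from 4.18 to 6.07 in the floxed line, from 5.19 to 5.44 in DKO and from 4.65 to 6.34 in dCD. Its formative levels were thus within 0.45 of each other in wild type, floxed and dCD cells, and DKO was the lowest. Its naive levels ran the other way, lowest in wild type and highest in DKO. Reads were few in naive cells, 5.35 in wild type and 17.6 in DKO.

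Its neighbour in intron 1, at +4.3 kb (chr5:98257574-98259399), gained 2.30 in wild type (FDR 6.37e-05 in the authors' deposited table), from 3.90 to 6.20. The floxed line went from 3.88 to 6.19, dCD from 4.24 to 6.47 and DKO from 4.57 to 5.50. Here dCD reached the highest formative level of the 4 genotypes and DKO the lowest.

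Downstream of the gene, the widest distal region of the locus at +29.1 kb (chr5:98280324-98286220) had the smallest FDR of the 13, 1.10e-16 in the authors' deposited table. Its level rose from 3.15 to 5.21 in wild type, which corresponds to 55.1 and 252 normalized reads. It went from 2.96 to 5.13 in the floxed line, from 3.69 to 4.25 in DKO and from 3.59 to 4.44 in dCD. Both mutants therefore started above and ended below their controls.

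At +34.8 kb (chr5:98288436-98289481) the level went from 5.02 to 7.11 in wild type (FDR 0.00391 in the authors' deposited table), from 4.60 to 6.94 in the floxed line, from 4.87 to 5.73 in DKO and from 4.32 to 5.86 in dCD. At +36.6 kb (chr5:98289644-98291885) it went from 4.43 to 6.50 in wild type (FDR 3.76e-07), from 4.52 to 6.40 in the floxed line, from 4.77 to 4.99 in DKO and from 4.50 to 5.54 in dCD. Naive levels of the latter lay within 0.34 of each other in the 4 genotypes, and only in formative cells did the genotypes stand apart, with both mutants below both controls.

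Upstream, the −7.7 kb region (chr5:98244707-98248348) went from 4.26 to 6.01 in wild type (FDR 2.23e-09 in the authors' deposited table) and from 4.24 to 5.64 in the floxed line. In DKO its level was 4.75 in naive and 4.65 in formative cells, the only region of the 13 without a positive difference in DKO, and in dCD it went from 3.95 to 4.49. The region at −11.4 kb (chr5:98241042-98244469) gained 1.58 in wild type, 1.55 in the floxed line, 0.46 in DKO and 0.51 in dCD.

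The region over the start site, the one with the most reads in every group, differed little. Its level was 3.57 in naive and 4.28 in formative wild-type cells (FDR 0.00667 in the authors' deposited table), 3.90 and 4.32 in the floxed line, 4.08 and 4.18 in DKO and 3.69 and 4.28 in dCD. The 4 formative levels lay within 0.14 of each other.

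In intron 2, the regions at +11.5 kb (chr5:98264013-98267336) and +14.0 kb (chr5:98267490-98268916) gained 1.28 and 1.90 in wild type, 1.57 and 2.25 in the floxed line, 0.46 and 0.36 in DKO, and 0.95 and 0.98 in dCD. At +18.0 kb (chr5:98271714-98272562) the gains were 1.71, 0.65, 0.53 and 2.74 in wild type, floxed, DKO and dCD cells. This is the narrowest region, and the dCD value rests on 1.12 normalized reads in naive cells. At +19.9 kb (chr5:98273308-98274798) the differences were 0.22, 0.98, 0.47 and 0.23.

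The smallest wild-type difference, 0.04, was that of the +21.7 kb region in exon 3 (chr5:98275244-98276542), whose levels were 5.57 in naive and 5.61 in formative wild-type cells. It was 4.49 and 5.59 in the floxed line, 7.08 and 7.26 in DKO, and 6.13 and 5.91 in dCD. DKO stood above the other genotypes in both states at this region, as it did at +19.9 kb (6.40 in naive and 6.87 in formative cells). At +18.0, +19.9 and +21.7 kb the authors' deposited table gives FDRs of 0.111, 0.749 and 0.938, and these are the 3 regions with no call in the wild-type transition.

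**Figure D1:**
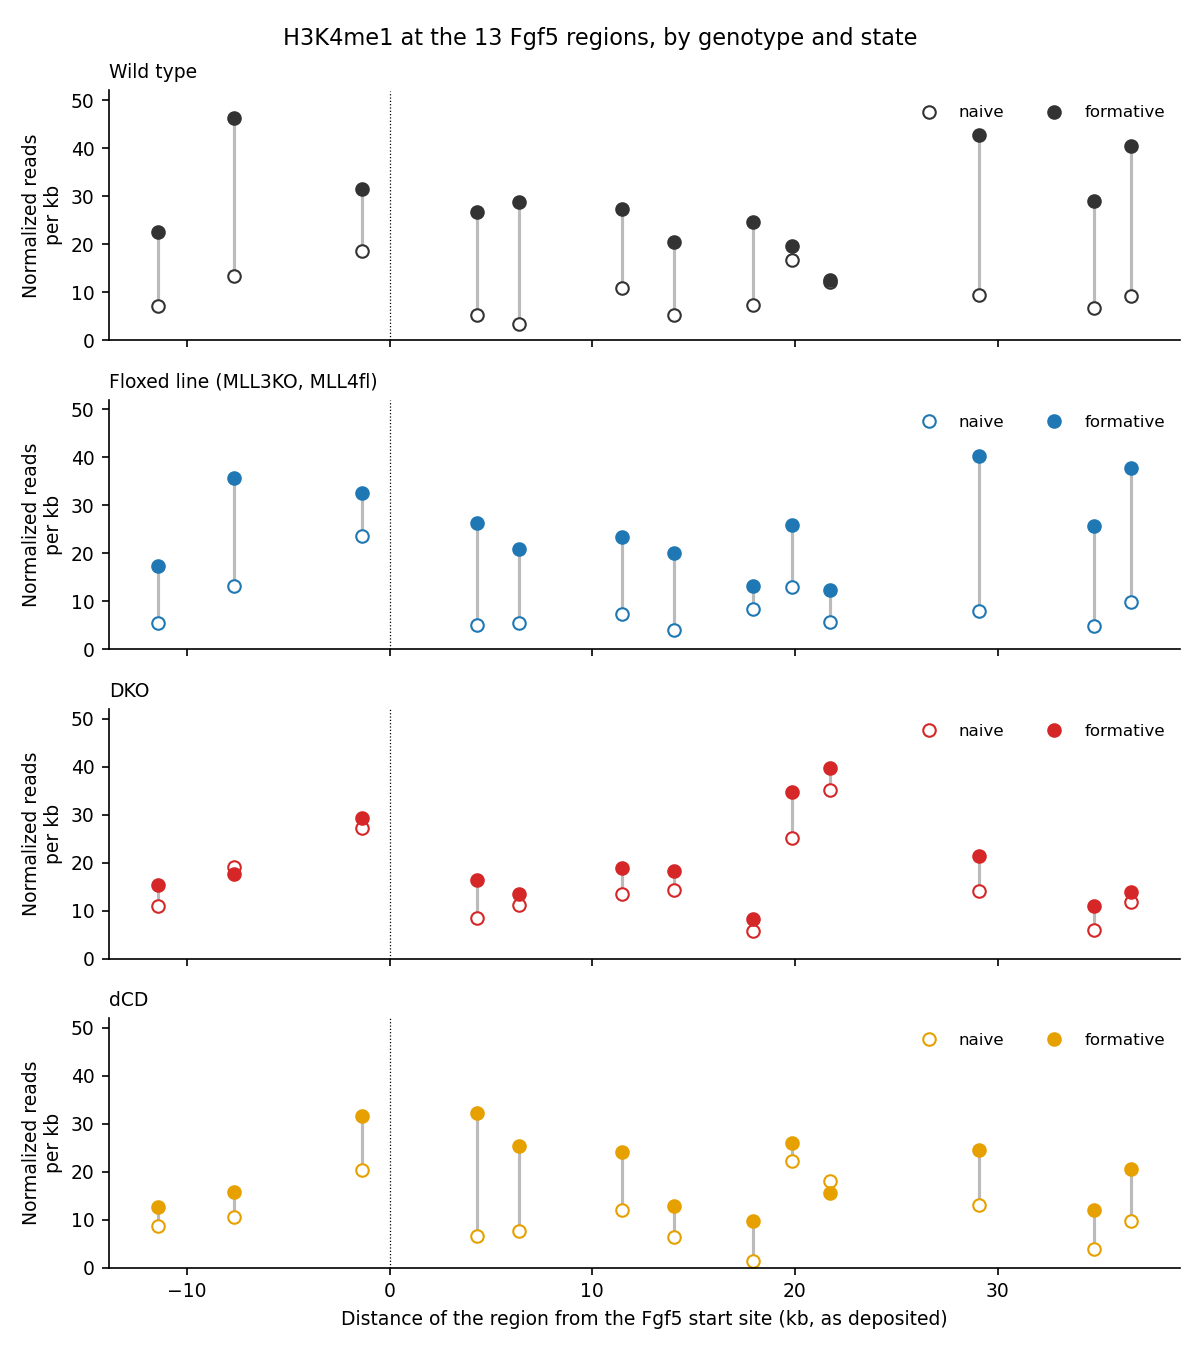
H3K4me1 in normalized reads per kb (vertical axis) at the 13 Fgf5 regions, by distance from the start site in kb (horizontal axis), for the 4 genotypes. Open points are naive and filled points formative cells, 1 pooled value each with no error bar, and the grey line joins them. At +29.1 kb the pair stands at 9.34 and 42.7 in wild type but at 14.1 and 21.4 in DKO.

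The floxed line, with MLL4 but no MLL3, gained H3K4me1 at the locus as wild type did. It had 10 regions at least 2-fold higher in formative cells, where 9.33% of all regions were, and the mean difference over the 13 regions was 1.58, beside 1.59 in wild type. Across the 13 regions the differences of the lines, which share no library, correlated at r = 0.69 (Spearman's rho 0.79), as a description over neighbouring regions of 1 locus that share low naive depth. Within a state the lines differed little. In naive cells 1 region of 13, at +21.7 kb, was at least 2-fold lower in the floxed line, where 4.38% of all regions were, and in formative cells none was 2-fold apart. Set among the 12376 genes with at least 5 regions, Fgf5 ranked 67 from the highest in the wild-type transition and 14 in the floxed transition. Loci at least 1.5-fold higher made up 11.5% and 8.48%.

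In DKO cells most of the gain was missing. No Fgf5 region was at least 2-fold higher in formative DKO cells, where 1.2% of all regions were, and the differences ran from −0.10 to 0.93 with a mean of 0.41. At all 13 regions the DKO difference was smaller than that of the floxed line. Over the 10 regions that were at least 2-fold higher in the floxed line, the log2 difference in DKO was between −7.2% and 40.2% of it. The median was 21%. These regions were picked by the floxed difference that the share is taken of, which biases the share low. The mean still ranked 194 from the highest of 12376 loci, since few loci moved in DKO: 0.356% were at least 1.5-fold higher. The DKO transition fell short of the floxed transition by 1.17 on the log2 scale, and 7.55% of loci were short by at least 1.5-fold.

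The shortfall had 2 sides. In naive cells, DKO was above the floxed line at 12 of 13 regions, with a mean of 0.78. At least 2-fold higher were 3 regions, at +6.4 kb (1.01, or 0.97 from normalized reads), +14.0 kb (1.76) and +21.7 kb (2.59), where 4.36% of all regions were. Among loci, 2.36% were at least 1.5-fold higher and Fgf5 ranked 86 from the highest, while the median locus stood at −0.21. With each group centred on its median, or after quantile scaling, the regions at least 2-fold higher numbered 6 and 8. The share of all regions under these scalings is not given, so these counts have no background beside them. In formative cells, DKO was below the floxed line at 11 of 13 regions, with a median of −0.64 and a mean of −0.39. This mean ranked only 3406 from the lowest of 12376 loci, and the median over all regions was −0.13. At least 2-fold lower were 2 regions, at +34.8 kb (−1.21) and +36.6 kb (−1.41), where 16.7% of all regions were, and 1 was higher, at +21.7 kb (1.67), where 6.47% of all regions were. A count of 2 in 13 is near that background. Centring reduced the mean to −0.18, so the size of the formative deficit depends on scaling, whereas the naive excess reached 1.13 under quantile scaling. Against wild type, formative DKO was at least 2-fold lower at 5 regions, where 20.2% of all regions were.

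Summed over the locus, normalized reads were 425 in naive and 1070 in formative floxed cells, and 640 and 786 in DKO. The DKO values thus both lay between the naive and formative values of its control. Over all regions, median reads were lower in DKO than in the floxed line in both states (31.7 against 37.1, and 30.7 against 35.0).

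dCD cells reached a 2-fold gain at more regions than DKO did. At least 2-fold higher in formative dCD were 5 of 13 regions, where 1.37% of all regions were: +4.3 kb (2.23), +6.4 kb (1.69), +18.0 kb (2.74), +34.8 kb (1.54) and +36.6 kb (1.03). The mean of 1.05 was 66.1% of the wild-type mean, where DKO had 25.8% of the floxed mean. Without the +18.0 kb region of few reads, the mean was 0.91 in dCD and 1.58 in wild type. Over the 10 regions at least 2-fold higher in wild type, picked in the same way, the dCD difference was between 30.9% and 160% of it. The top share was that of the +18.0 kb region of few reads. The median was 54.2%, and for DKO over the same wild-type set it was 28.4%. The dCD mean of 1.05, which includes the +18.0 kb region, was the second highest of 12376 loci in this genotype. In dCD 0.339% of loci were at least 1.5-fold higher. The dCD transition differed from that of wild type by −0.54, short of the 1.5-fold rule that 9.85% of loci passed. In naive cells dCD was above wild type at 10 of 13 regions, with a median of 0.25. The mean was 0.03, or 0.23 without the +18.0 kb region, and 0.38 with each group centred on its median. There 1 region was at least 2-fold higher (+6.4 kb, 1.09) and 1 lower (+18.0 kb, −2.34), where 1.55% and 13.9% of all regions were. In formative cells dCD was lower at 9 of 13 regions, at least 2-fold at 3, where 20.1% of all regions were: −7.7 kb (−1.51), +18.0 kb (−1.31) and +34.8 kb (−1.25). The formative mean of −0.51 ranked only 3309 from the lowest of 12376 loci, and the median over all regions was −0.29. Centring reduced the count to 1 and moved the mean from −0.51 to −0.11.

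**Figure D2:**
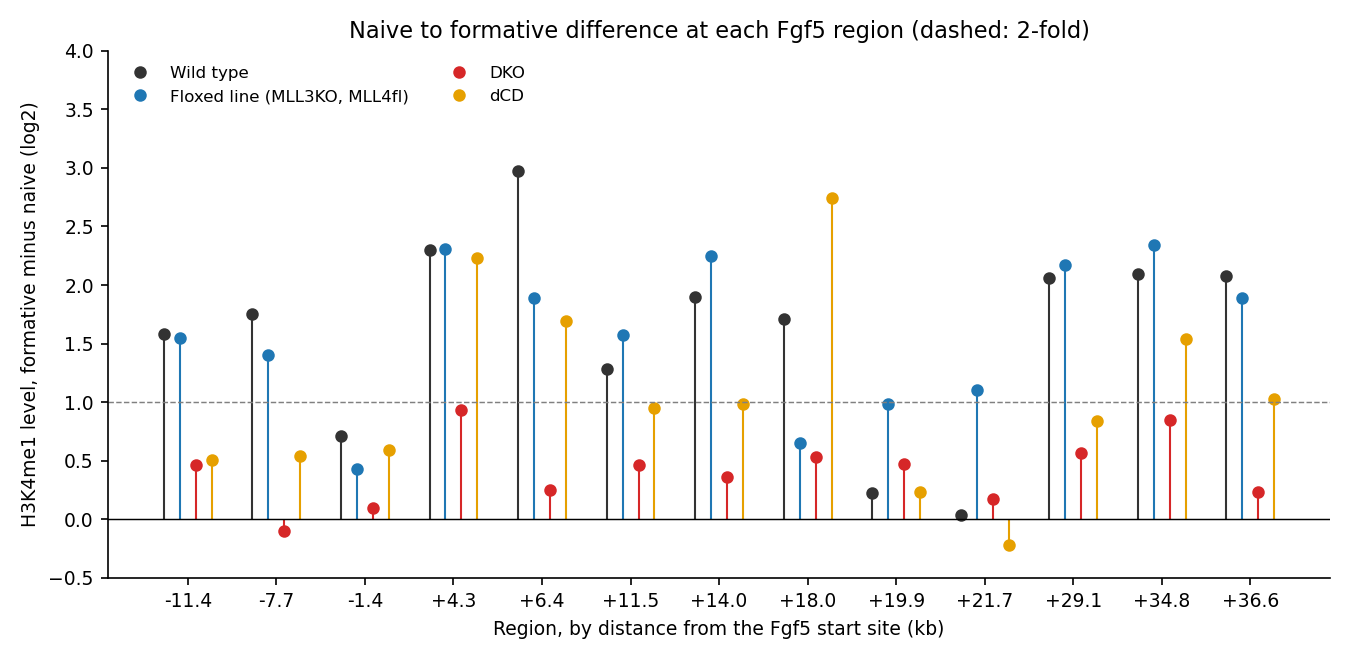
Difference in H3K4me1 level between formative and naive cells (log2, vertical axis) at each of the 13 Fgf5 regions, ordered by distance from the start site in kb (horizontal axis), with 1 pooled value per genotype and the dashed line at 2-fold. All 13 DKO points lie under the dashed line, while dCD reaches 2.23 at +4.3 kb beside 2.30 in wild type.

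The dCD gain differed between parts of the locus. Over the start site it was 0.59 beside 0.71 in wild type. In intron 2 the mean over 4 regions was 1.23 beside 1.28, but it includes the +18.0 kb region of few reads (2.74 beside 1.71). The other intron 2 regions gained 0.95, 0.98 and 0.23 in dCD, beside 1.28, 1.90 and 0.22 in wild type. At the 3′ end the dCD gain was −0.22 beside 0.04. In intron 1 the mean gain over 2 regions was 1.96 in dCD and 2.63 in wild type, and formative dCD stood 0.04 from formative wild type. Upstream, also over 2 regions, the gain was 0.53 in dCD and 1.67 in wild type, and formative dCD differed by −1.15. The 3 downstream regions gained 1.14 in dCD and 2.07 in wild type, with a formative difference of −0.99. In DKO the gain was low in every part, at 0.18 upstream, 0.10 over the start site, 0.59 in intron 1, 0.46 in intron 2 and 0.55 downstream. With 1 to 4 regions in a part and 1 value per group, these differences within the locus have no test.

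RNA and H3K27ac were available as folds in the authors' deposited table, from samples outside this series. Fgf5 RNA rose by a log2 fold of 6.09 from naive to formative wild-type cells in the authors' deposited table, a 68.1-fold difference and the second highest of 10877 genes with a value. In DKO the fold in the authors' deposited table was 5.75, or 53.9-fold, again the second highest. The folds of DKO over wild type in the authors' deposited table were −0.08 for naive and −0.42 for formative cells. RNA of 19.1% of genes was at least 2-fold higher in formative wild-type and of 20.0% in formative DKO cells. The RNA fold of the gene in DKO thus stood beside a mean H3K4me1 difference of 0.41 over its regions. In bulk samples, fewer cells with a mark or transcript and less of it per cell cannot be told apart. The RNA fold was listed for 10 of the 13 regions, all those downstream of the start site, with 1 value for the gene.

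H3K27ac differed between the gene body and the downstream regions. In the authors' deposited table, 9 of 13 regions were at least 2-fold higher in H3K27ac in formative than in naive wild-type cells, where 33.0% of all regions were, and 7 in DKO, where 21.7% of all regions were. In DKO 2 were at least 2-fold lower, +4.3 kb (−1.60) and +18.0 kb (−5.75), where 18.0% of all regions were, and in wild type 0 were. Between formative DKO and wild-type cells, 9 were at least 2-fold lower in DKO, where 27.8% of all regions were, and 2 higher, where 18.9% of all regions were. Both higher ones lay downstream. At +29.1 kb, H3K27ac rose by 3.03 in wild type and 2.46 in DKO in the authors' deposited table, and formative DKO stood 0.81 above wild type although its H3K4me1 stood 0.95 below. At +36.6 kb the formative difference was 1.66 for H3K27ac and −1.51 for H3K4me1, and at +34.8 kb 4.21 and −1.38. So all 3 downstream regions had less H3K4me1 and more H3K27ac in formative DKO than in wild type. The H3K27ac excess was not confined to formative cells. In naive cells the deposited fold of DKO over wild type was 1.38 at +29.1 kb and 3.66 at +34.8 kb, but −0.45 at +36.6 kb.

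In the introns the marks differed in the same direction at 5 of 6 regions. In intron 1, the deposited H3K27ac fold of formative DKO over wild type was −3.31 at +4.3 kb and −4.73 at +6.4 kb in the authors' table, where H3K4me1 differed by −0.69 and −1.09. In intron 2 it was −3.29 at +11.5 kb, −1.32 at +14.0 kb, −7.43 at +18.0 kb and −1.60 at +19.9 kb. At +19.9 and +21.7 kb H3K4me1 was instead higher in DKO, by 0.82 and 1.65. Over the start site the H3K27ac fold was −1.19 and the H3K4me1 difference −0.10. Folds of narrow regions can rest on few reads: at +18.0 kb the H3K27ac folds of formative over naive wild type (7.43) and of formative DKO over wild type (−7.43) were equal in size, so naive wild type and formative DKO had the same deposited level there. At +34.8 kb the wild-type fold was 0.00, so the wild-type states had the same level. At +6.4 kb the DKO fold of formative over naive cells was 0, so the DKO states had the same level. Of the 6 regions at least 2 kb wide, 3 were at least 2-fold lower and 1 higher in formative DKO in the authors' deposited table. Of all regions, of any width, 27.8% were lower and 18.9% higher. The median fold over the 6 was −0.71, against −1.23 over the 13.

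**Figure D3:**
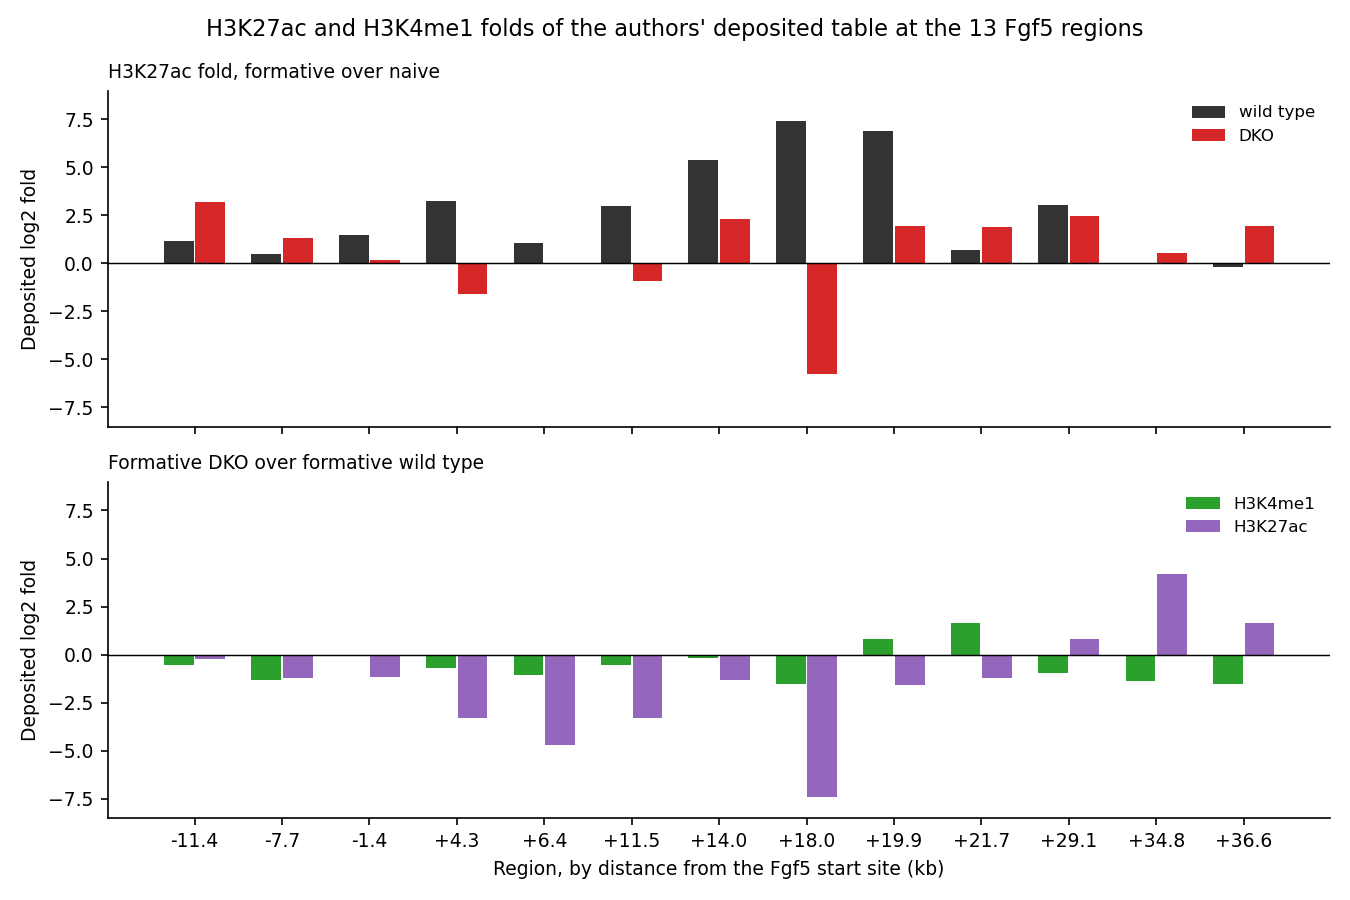
Folds from the authors' deposited table (log2, vertical axes) at the 13 Fgf5 regions, ordered by distance from the start site in kb (horizontal axis). The upper panel has H3K27ac in formative over naive cells for wild type and DKO, and the lower panel has H3K4me1 and H3K27ac in formative DKO over formative wild type, with bars of opposite sign at +29.1 kb (−0.95 and 0.81) and +36.6 kb (−1.51 and 1.66).

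The gain went beyond the regions named for Fgf5. Within 500 kb of its start, 51 regions were named for other genes. All 51 were higher in formative than in naive wild-type cells, where the median difference over all regions was −0.03. Of the 51, 32 gained at an FDR under 0.05 in the authors' deposited table, where 9.82% of all regions did. The median difference of the 51 was 1.15 in wild type, 0.97 in the floxed line, 0.23 in DKO and 0.35 in dCD. The Fgf5 medians were 1.75, 1.57, 0.46 and 0.95. The flanking genes listed for this comparison were the transcription factor gene Prdm8 and the anthrax toxin receptor gene Antxr2 upstream, and Cfap299 and the BMP ligand gene Bmp3 downstream. Cfap299 had 13 regions with a wild-type median of 1.44, Antxr2 had 9 with 1.08, Prdm8 had 4 with 1.05, and Bmp3 had 1 with 0.79. The other regions had as nearest gene Mir703 (17 regions, median 0.88) or A730035I17Rik (7 regions, median 1.43), names taken after the values were seen. The first region past the downstream edge (chr5:98292230-98295998), named for Cfap299, differed by 2.50 in wild type, 2.11 in the floxed line, 0.55 in DKO and 0.92 in dCD. The last region before the upstream edge (chr5:98212304-98214160, nearest gene A730035I17Rik) differed by 2.34, 0.69, −0.08 and 0.59. In dCD, 1 of the 51 flanking regions was at least 2-fold higher, against 5 of 13 at Fgf5, where 1.37% of all regions were. This contrast has no test and was noticed in the data.

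**Figure D4:**
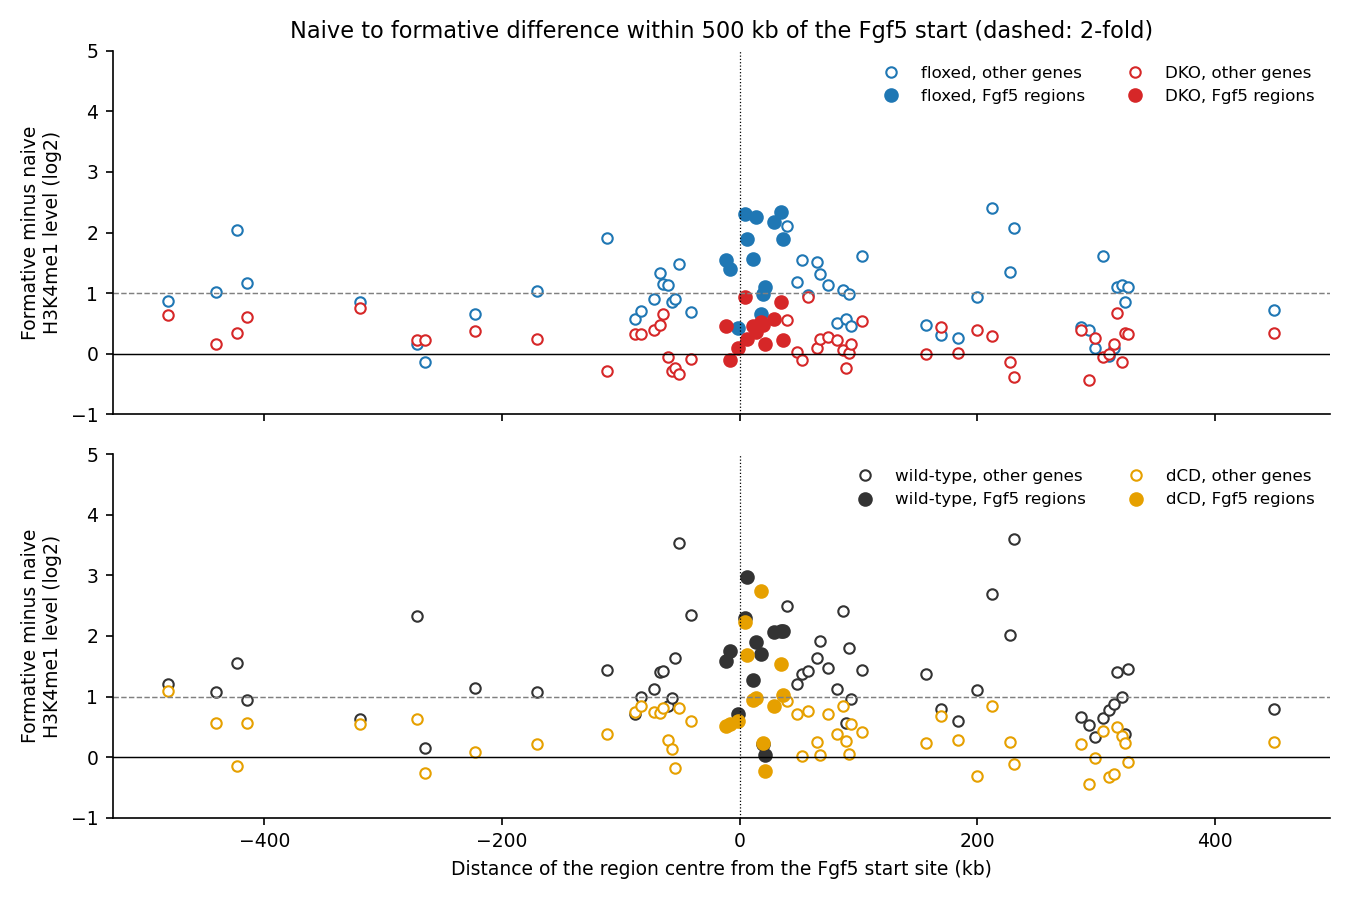
Difference in H3K4me1 level between formative and naive cells (log2, vertical axis) against distance of the region centre from the Fgf5 start in kb (horizontal axis), for the 13 Fgf5 regions (filled) and 51 regions named for other genes within 500 kb (open). Floxed and DKO cells are in the upper panel, wild type and dCD in the lower, and every DKO value lies under the dashed 2-fold line, with a flanking median of 0.23.

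The loci most like Fgf5 were found from the 8 group means, each region centred on its own mean, by Euclidean distance among the 12376 loci. The 5 nearest were Gucy1b1 (distance 0.60), a guanylate cyclase subunit gene, Crb1 (0.61), a cell polarity gene, Cfap299 (0.63), P3h2 (0.63), a prolyl hydroxylase gene, and Gm6260 (0.65), where the median locus was 1.99 away. Their correlations with Fgf5 over the 8 groups, which include the same libraries for each gene, were 0.94 to 0.97. These loci had wild-type differences of 1.27 to 1.74 and DKO differences of 0.05 to 0.30. They were picked by the same 8 group means, so high correlations and similar differences follow from the choice. In dCD the 5 loci differed by 0.29 to 0.56, below the 1.05 of Fgf5 (0.91 without its +18.0 kb region of few reads). Cfap299 is the neighbour of Fgf5 on chromosome 5, and the others lie on chromosomes 3, 1 and 16.

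Other genes of FGF signalling, in which ligands bind receptor tyrosine kinases and drive ERK activity that is held in check by Sprouty and Spred proteins and by dual-specificity phosphatases, moved far less. Of 31 genes listed, 28 had at least 5 regions. In wild type 3 loci were at least 1.5-fold higher in formative cells, the receptor gene Fgfr3 (0.96) and the inhibitor genes Spred1 (0.82) and Spry4 (0.66), where 11.5% of loci were, and 1 was lower, the co-receptor gene Klb (−0.71), where 12.5% of loci were. A count of 3 in 28 is near that background. The list median was 0.19, against −0.08 over all loci. In the floxed line the median was 0.16, and in DKO and dCD, where no locus of the list passed in either direction, it was 0.03 and 0.05. Among ligands, Fgf15 differed by 0.38, Fgf10 by 0.30 and Fgf2 by −0.41 in wild type. In formative DKO against floxed cells 8 of the 28 were lower, led by Fgf15 (−0.96), Fgf10 (−0.87) and Spred1 (−0.78), where 16.1% of loci were, and Fgf2 (0.98) was higher, where 4.53% of loci were. In RNA of the authors' deposited table, the 25 listed genes with a value included 8 with a fold of 2 or more upward and 3 downward in the wild-type transition, where 19.1% and 9.77% of genes were. In DKO 13 were higher and 2 lower, where 20.0% and 5.25% of genes were. Among the inhibitors, 4 were picked after their values were seen. Their folds in the authors' deposited table (log2) in wild type and DKO were 3.81 and 5.06 for Dusp6, 1.62 and 5.29 for Spry4, 0.36 and 1.86 for Spry2, and 0.94 and 2.01 for Spred2. Dusp4, also listed, went the other way, with 3.53 and 3.39 in the authors' deposited table. The folds of formative DKO over formative wild type there were −0.15 for Dusp6, 1.43 for Spry4, −0.03 for Spry2, 0.72 for Spred2 and −0.11 for Dusp4. The Spry4 locus differed in H3K4me1 by 0.34 in DKO.

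The states could be checked against marker genes, in RNA only for wild type and DKO and from samples outside this series. In RNA of the authors' deposited table, 8 of 9 naive markers were at least 2-fold lower in formative wild-type cells, where 9.77% of genes were, and 5 of 6 formative markers with a value, Fgf5 left out, were higher, where 19.1% of genes were. In DKO the counts were 8 of 9, where 5.25% of genes were lower, and 6 of 6, where 20.0% were higher. In H3K4me1, 3 of 9 formative-marker loci were at least 1.5-fold higher in wild type and 3 in the floxed line. In DKO and dCD 0 were. Of all loci, 11.5% were in wild type, 8.48% in floxed, 0.356% in DKO and 0.339% in dCD cells. Of naive-marker loci 3 of 9 were at least 1.5-fold lower in wild type, against 12.5% of loci. Their medians were −0.35 in wild type, −0.42 in floxed, −0.20 in DKO and −0.36 in dCD cells, against −0.08, −0.10, −0.02 and −0.04 over all loci. Of the fibroblast markers, which would mark feeder cells, all 4 with a value among 7 were at least 2-fold higher in RNA in formative wild-type cells (median 2.04), against 19.1% of genes, and 3 of 4 in DKO, against 20.0%. Their H3K4me1 loci were at least 1.5-fold higher at 2 of 5 in wild type, against 11.5% of loci, and at 0 of 5 in DKO, against 0.356%. Of the endoderm markers 0 of 3 with a value rose 2-fold in wild type. Their part in the Fgf5 values was not tested. Median normalized reads per region over the whole table were 29.6 to 39.3 in the 8 groups, whereas naive Fgf5 regions other than that over the start site had 1.12 to 83.0.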

How the data were processed

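H3K4me1 CUT&RUN was analysed in 16 samples, 2 libraries in each of 8 groups, from 1 deposited table. The 1 IgG and 4 MLL4 samples were not analysed here. Tools listed in the submitters' processing notes are deepTools, DiffBind, SEACR, Bowtie2 and Trim Galore, with the build mm10. No tool version or role is given in the sources used here. Yeast spike-in DNA was added per the labels' protocols, and whether the levels were scaled by it is not given. The deposited levels are log2 values, 1 for each region and group. Floxed-line values were read from CKO columns, an abbreviation found in the track names of those samples' descriptions. Per the file headers the table also holds the authors' mean reads, log2 fold, p-value and FDR for formative against naive wild type, and log2 folds of H3K27ac and RNA. Another 15 columns were not used. Of 186826 regions 2 had no levels, and 271 date-like gene names were treated as unnamed.

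From the wild-type columns, a level was found to equal the log2 of 1 plus a constant (22.25 on the log2 scale) times normalized reads over the squared width. Reads of all groups were recovered from this. Only wild type could be checked, where Fgf5 regions lay within 0.27 (log2) of the authors' means. Differences were counted at 2-fold for regions and 1.5-fold for means over all regions of a gene. The planned test per region (limma) needs a column per library and was not run. The calculation was tested on simulated data. Named regions followed rules: that nearest the start, the largest gains and the smallest difference in wild type, and those at least 2-fold apart in formative DKO and floxed cells. Members and lists were chosen with earlier results of these data known. Python 3.11.15, numpy 2.4.6 and pandas 2.3.3 were used.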

Additional observations from a re-analysis of the deposited data

Results flagged for a closer look

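At the −7.7 kb region, H3K4me1 differed between formative and naive cells by −0.10 in DKO and by 1.40 in the floxed line, in opposite directions. Each value comes from 1 pooled column per group and the difference was not tested. It is the only Fgf5 region at which a mutant moved opposite to its own control where that control differed at least 2-fold. At +21.7 kb dCD differed by −0.22 and the floxed line, which is not its control, by 1.10.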

How the results depend on the processing

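Without library-level columns, leaving out a replicate was not possible. No paired analysis was possible because each group has 1 pooled column. Of 186 values under alternatives 155 stayed within 1.5 times of the count or within counting error of the mean. The sign of 1 mean changed: naive floxed minus wild type was −0.16, too small to be counted, and 0.02 as a ratio of summed reads. Working from normalized reads, an FDR of 0.01, the 50 kb limit (all 13 regions lie within it) or leaving out the region of fewest reads moved none; normalized reads and that omission were added after seeing the data, as was wild type as the control of DKO, which raised the formative lower count from 2 to 5. At 1.5-fold, regions higher in formative cells numbered 2 in DKO and 9 in dCD, naive DKO was higher than floxed at 8, formative DKO lower at 7, naive dCD lower than wild type at 2, formative dCD lower at 7, and the floxed line was higher than wild type at 1 naive region beside the 1 that was lower, and lower at 1 formative region. Only 3 regions were at or above the median wild-type level for their width: of these, 2 were higher in formative wild-type, 2 in floxed and 0 in dCD cells, 1 was lower in formative dCD than in wild type, and 0 passed in naive DKO (higher), in formative DKO (higher or lower), in naive dCD (higher or lower) or in the naive floxed line (lower). Centring each group on its median gave 6 higher naive DKO regions, 1 lower formative dCD region and 0 lower naive floxed regions, with means of −0.18 for formative DKO against floxed, 0.38 for naive dCD and −0.11 for formative dCD against wild type. Quantile scaling gave 8 and 1 for the same first counts, and means of 1.13 for naive DKO, 0.44 for naive dCD and −0.16 for formative dCD. The median in place of the mean was −0.64 for formative DKO against floxed. The cause of these shifts was not tested, and no share of all regions is given for these settings. Few naive reads at the narrow regions limit their precision.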
